A study of Mus musculus with 1002 samples.

Results

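Single cells from the utricle of P4 mice (postnatal day 4) were compared between 2 transgenic lines, Pou4f3-DTR and Atoh1-EGFP. The wells compared were all those of these 2 genotypes labelled as passed, prepared with the smartscribe reverse transcriptase at a well volume of 4, given without a unit, and sequenced in pool 3. There were 72 Pou4f3-DTR and 78 Atoh1-EGFP wells, 150 of the 861 passed wells and of the 1002 wells in all. No well was chosen by its expression. Cells were sorted one to a well and read by Smart-seq2, which covers whole transcripts and carries no molecular identifiers. The strain of both groups is given as mixed C57BL/6 and FVB. The labels name no animal, plate, sort gate or toxin treatment, so each genotype was counted as 1 sample. Genotype, animal and plate cannot be told apart, and no difference below has a test or a replicate. Comparisons were repeated within classes of cells, and 1 P4 wildtype group (pool 7, maxima reverse transcriptase, 159 wells) is quoted for levels only. A group of 43 P2 wells (postnatal day 2, smartscribe, genotype Atoh1-EGFP;Pou4f3-DTR), not matched for well volume, is quoted for marker levels only.

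The utricle is the organ of the inner ear that senses linear acceleration. Its hair cells carry a bundle of stereocilia that opens ion channels when deflected, and supporting cells surround them. Atoh1 starts hair cell differentiation, and Pou4f3, which acts after it, keeps hair cells alive. In Atoh1-EGFP mice a green fluorescent protein reports Atoh1 activity. In Pou4f3-DTR mice the Pou4f3 locus drives the human diphtheria toxin receptor, which lets toxin kill hair cells. Notch signalling keeps the 2 sensory cell kinds apart: ligands on hair cells activate Notch receptors on their neighbours, which then express Hes and Hey repressors.

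Passed wells held 152500 to 718216 reads in Pou4f3-DTR (median 440868) and 290812 to 742583 in Atoh1-EGFP (median 459311). The medians of detected genes were 4067 and 4192.5, and those of the mitochondrial share were 3.05% and 3.02%. Of the wells sorted, 72 of 88 Pou4f3-DTR wells passed (81.8%, exact Clopper-Pearson 95% interval 72.2 to 89.2%) and 78 of 90 Atoh1-EGFP wells (86.7%, 77.9 to 92.9%). Intervals cover counting error only, and since PCR reads are not independent molecules, those of read levels are narrower than the uncertainty of cells. Both sexes were present in both groups. Wells with an Xist read and no read of 4 Y-linked genes were 13 of 72 in Pou4f3-DTR (18.1%, 9.98 to 28.9%) and 30 of 78 in Atoh1-EGFP (38.5%, 27.7 to 50.2%). Wells with a Y-linked read alone numbered 46 and 38, and no well had both.

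The same cell classes were found in both genotypes at similar shares. Clusters of all passed wells were named from marker lists. Hair-cell-like wells were 14 of 72 in Pou4f3-DTR (19.4%, 11.1 to 30.5%) and 19 of 78 in Atoh1-EGFP (24.4%, 15.3 to 35.4%). Supporting-cell-like wells were 22 in each genotype, 30.6% (20.2 to 42.5%) and 28.2% (18.6 to 39.5%). Wells like non-sensory epithelium, the sheet around the sensory patch, were 28 (38.9%, 27.6 to 51.1%) and 32 (41.0%, 30.01 to 52.7%). The intervals of each pair overlapped, and the sort gates, which are not in the labels, can set such shares.

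Since the marker lists also named the clusters, marker levels describe each class and are no separate check of its label. In 1 small cluster the wells compared here lacked the markers of its label. In the hair-cell-like wells the 21 hair cell markers together took a median of 1.73% of reads in Pou4f3-DTR (0.998 to 2.65%) and 2.03% in Atoh1-EGFP (0.997 to 4.24%). In supporting-cell-like wells the same markers took a median of 0.0548% and 0.0544%. Cluster 0 was called mesenchyme-like over the whole series and held 4 Pou4f3-DTR and 3 Atoh1-EGFP wells. In these 7 wells 9 of the 10 mesenchyme markers had no read, and the summed markers reached at most 1.94 CPM (reads scaled to a common library total) in a well. In 10 wells of the same cluster from the P2 group, which differs in age and genotype, they stood at a median of 68867 CPM. The 7 wells were therefore left unnamed. Genes picked after their values were seen marked them, such as Kcne1, a potassium channel subunit, at 265 CPM with a read in 5 of 7 wells, against 0.195 CPM with a read in 1 of the other 143. Slc12a2, a sodium, potassium and chloride cotransporter, stood at 341 and 11.4 CPM. Cluster 8, with 4 Pou4f3-DTR and 2 Atoh1-EGFP wells, was not named either, because supporting cell and non-sensory markers were near equal in it.

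**Figure D1:**
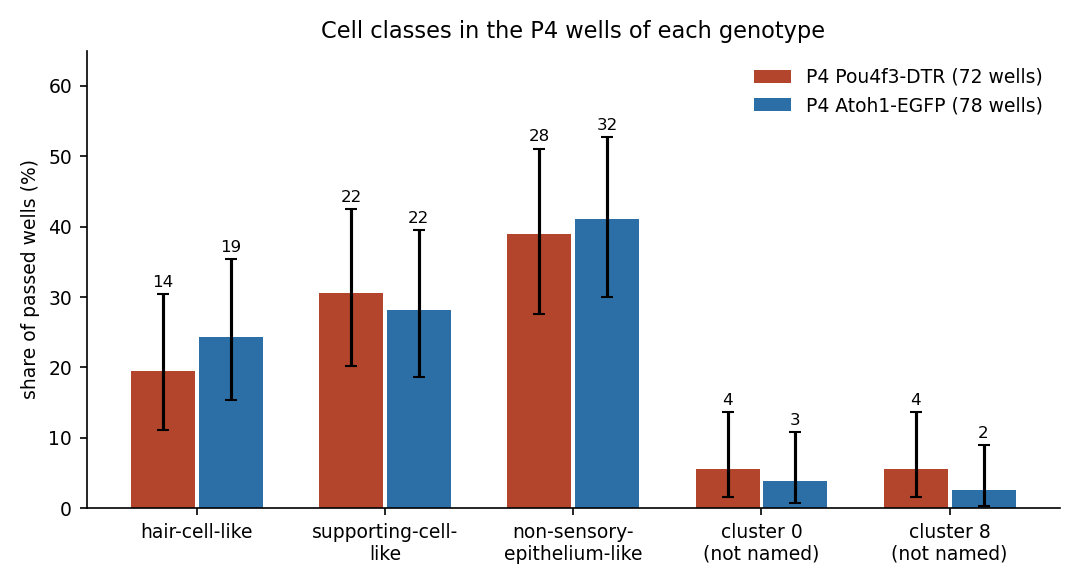
Share of passed wells (%, vertical axis) in each class for P4 Pou4f3-DTR (72 wells) and P4 Atoh1-EGFP (78 wells), with exact 95% intervals as bars and the number of wells above each. The intervals of every pair overlap, with hair-cell-like wells at 19.4% and 24.4%.

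The genes that define the genotypes were read in both. Pou4f3 (ENSMUSG00000024497.3, chromosome 18, 42394539 to 42397249 in GRCm38) had a read in 14 of 72 Pou4f3-DTR wells and 18 of 78 Atoh1-EGFP wells. Within hair-cell-like wells it ran from 0 to 1300 CPM in Pou4f3-DTR (median 724) and from 0 to 2165 CPM in Atoh1-EGFP (median 984). The wells overlapped, and the summed level was 706 CPM (exact Poisson interval 686 to 726) against 1031 CPM (1011 to 1053), 1.46-fold lower in Pou4f3-DTR. P4 wildtype hair-cell-like wells held 1311 CPM.

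Atoh1 (ENSMUSG00000073043.5, chromosome 6, 64729125 to 64731245) was nearly level between the genotypes, at 192 and 206 CPM in hair-cell-like wells, with a read in 6 of 14 and 10 of 19 of them. Over all wells 13 Pou4f3-DTR and 16 Atoh1-EGFP wells held an Atoh1 read, so some lay outside this class. Hbegf (ENSMUSG00000024486.5, chromosome 18, 36504927 to 36515805), the mouse homologue of the toxin receptor, had no read in hair-cell-like wells of either genotype. It was highest in non-sensory-epithelium-like wells, where Pou4f3-DTR held 202 CPM and Atoh1-EGFP 173 CPM. The entries for the transgenes, Pou4f3DTR and exEGFP, had 0 reads in both groups, so the transgenes themselves did not check the labels.

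Over all wells few genes differed strongly. Genes were tested for size if the mean of the 2 summed levels was at least 10 CPM and at least 10% of wells held a read. Of 8312 such genes, 304 (3.66%) were at least 2-fold higher in Pou4f3-DTR and 508 (6.11%) at least 2-fold lower. With TMM scaling, which centres the bulk of genes, the counts were 388 and 404, and the median log2 fold of all genes was -0.11 before and -0.02 after it. Among 2657 genes with at least 50 CPM and a read in at least 25% of wells, only 9 were higher and 27 lower.

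The gene with the widest separation was Nedd9, a scaffold protein of focal adhesions. Nedd9 (ENSMUSG00000021365.15, chromosome 13, 41309581 to 41487362) ran from 0 to 874 CPM in Pou4f3-DTR wells and from 0 to 77.0 CPM in Atoh1-EGFP wells, with a median of 0 in both. It had a read in 21 of 72 and 7 of 78 wells. The summed levels were 63.1 CPM (60.4 to 65.9) and 1.597 CPM (1.22 to 2.06), a 39.5-fold difference (log2 5.30), and log2 5.07 without the Pou4f3-DTR well with most reads. The difference stood in both sexes: 69.1 against 0.331 CPM in wells with a Y-linked read, and 85.8 against 3.66 CPM in wells with an Xist read. P4 wildtype wells, of another pool, enzyme and mix of clusters, held 52.8 CPM. In the annotation Nedd9 overlaps 5 other gene models, 4 of them on the other strand, and whether counting used strand is not given in the sources used here.

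Besides Nedd9, 12 more genes met the rule for naming in Pou4f3-DTR, and the next 9 by fold were named. Ahnak, a giant scaffold protein, stood at 57.9 against 10.2 CPM (5.69-fold) with a read in 28 and 19 wells. Vps41, a subunit of the complex that fuses vesicles with lysosomes, stood at 91.3 against 25.02 CPM (3.65-fold) with a read in 41 and 32 wells. Fam208a, a subunit of a gene-silencing complex, stood at 71.0 against 20.5 CPM (3.45-fold). The others ran from 2.97-fold for Enpp4, an ectoenzyme, to 2.42-fold for Gfod2, and included Ahi1 of the ciliary base, Acaca of fatty acid synthesis, Gprasp1 of receptor sorting and Eftud2 of the spliceosome. Single wells overlapped for each gene.

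In the other direction 27 genes met the rule, of which the 10 with the largest folds were named. Hist1h2bc, which encodes a histone H2B, ran from 0 to 701 CPM in Pou4f3-DTR wells (median 0) and from 0 to 1656 CPM in Atoh1-EGFP wells (median 78.0). Its summed levels were 46.9 CPM (44.6 to 49.3) and 166 CPM (162 to 170), 3.54-fold lower in Pou4f3-DTR, with a read in 22 and 45 wells. In wells with a Y-linked read it stood at 36.7 and 146 CPM, and in wells with an Xist read at 48.3 and 188 CPM. Nckap1, a subunit of the complex that drives actin branching, stood at 13.2 against 53.7 CPM (4.06-fold) and Ccdc68, a centriolar protein, at 30.3 against 101 CPM (3.32-fold). Med8 of the Mediator complex, Dolpp1 of glycan synthesis, Dpysl3 of growth cones, Ppp2r1b of protein phosphatase 2A, Ccdc127, Rbm4 of splicing and Fut8 of core fucosylation were lower by folds between 2.996 for Fut8 and 3.295 for Med8. Not all of these folds held in wells with an Xist read. Rbm4 turned the other way there, at 40.05 against 26.5 CPM. Med8 was nearly level, at 23.29 against 24.02 CPM, and Nckap1 differed less, at 37.87 against 49.95 CPM. The other named genes of this direction were lower in Pou4f3-DTR in these wells too.

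Of the gene lists with at least 5 measured members, hair cell markers had the lowest median over all wells. With 1458 of 8312 tested genes (17.5%) at least 1.5-fold lower in Pou4f3-DTR and 10.7% at least 1.5-fold higher, 9 of 19 measured hair cell markers lay lower and 0 higher; their median log2 fold was -0.56 against -0.11 for all genes. Pcp4, a calmodulin regulator, stood at 102 against 198 CPM and Otof, the calcium sensor of synaptic vesicle release, at 165 against 269 CPM. Fewer wells were hair-cell-like in Pou4f3-DTR, and with each class given the same weight in both genotypes 2 of 19 were lower and 1 higher, and the median was -0.35. Under TMM scaling 5 of 19 were lower.

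Of 11 measured heat shock genes 1 was at least 1.5-fold lower and 0 higher, a smaller share than the 17.5% of all genes, with a median of -0.32. That gene, Hspa1a, an inducible chaperone with a near-identical copy that could share its reads, stood at 2.23 against 52.7 CPM, with a read in 4 and 11 wells, and the constitutive Hspa8, Hsp90aa1 and Dnaja1 were within 1.5-fold. None of 16 measured immediate early genes differed by 1.5-fold in either direction over all wells (median 0.08). Irf1, an interferon-responsive transcription factor, stood at 94.5 against 40.9 CPM, the 1 of 5 measured cytokine and interferon genes above 1.5-fold (10.7% of all genes).

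**Figure D2:**
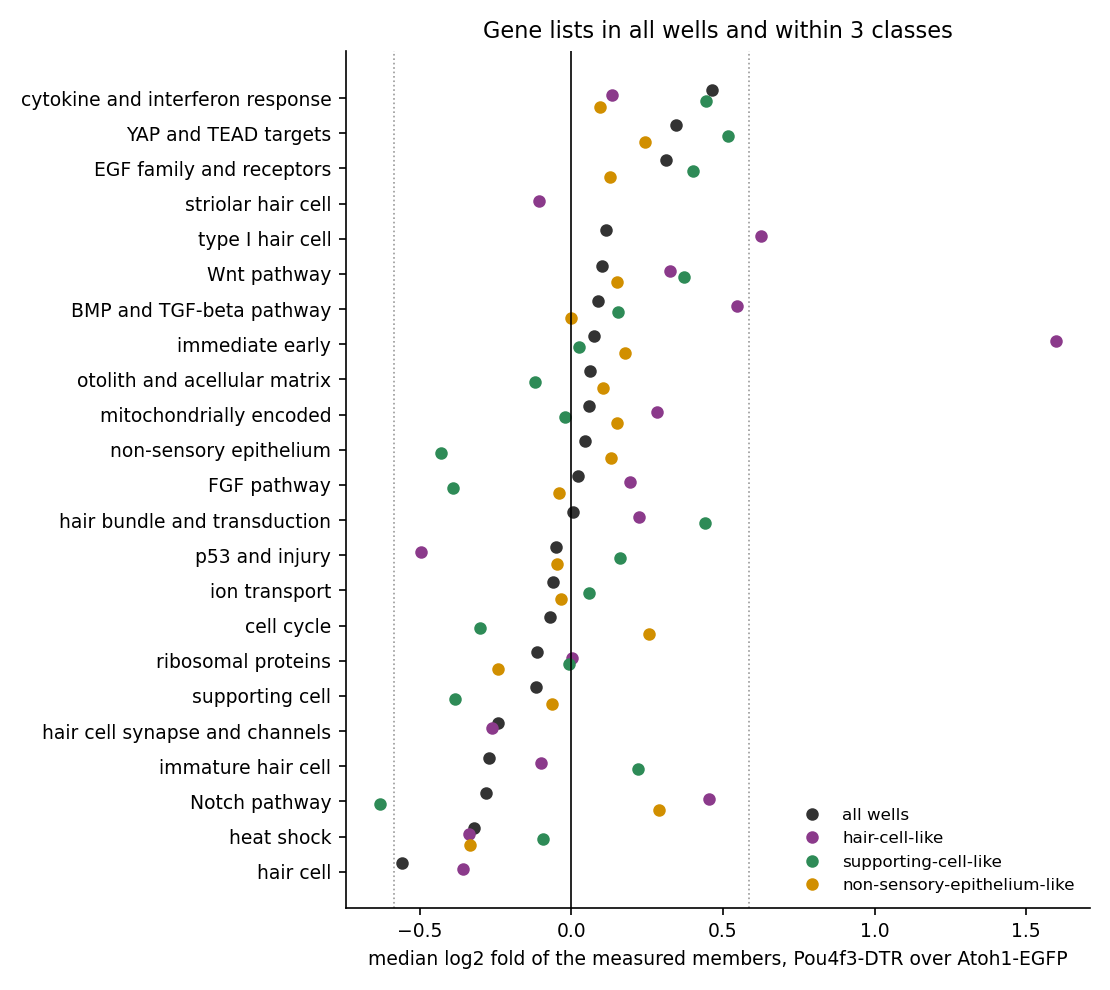
Median log2 fold (Pou4f3-DTR over Atoh1-EGFP, horizontal axis) of each gene list with at least 5 measured members, over all wells and within 3 classes; dotted lines mark 1.5-fold. Most medians lie between the lines, and 3 lie outside them: immediate early genes in hair-cell-like wells at 1.598 (0.46 without 3 wells), type I hair cell genes there at 0.63 and Notch pathway genes in supporting-cell-like wells at -0.63.

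In supporting-cell-like wells the genes of the Notch pathway were lower in Pou4f3-DTR. Of 7119 genes tested in these wells, 1949 (27.4%) were at least 1.5-fold lower and 1893 (26.6%) at least 1.5-fold higher. Of 16 measured Notch pathway genes, 8 were lower, 2 were higher, and their median log2 fold was -0.63 against -0.03 for all tested genes. The summed Notch list ran from 48.6 to 2447 CPM in single Pou4f3-DTR wells (median 1480) and from 483 to 3364 CPM in Atoh1-EGFP wells (median 2179), so the wells overlapped. The list was chosen with earlier results of these data known.

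Summed over these wells, the receptor Notch1 and the ligand Jag1 were both lower in Pou4f3-DTR. Notch1 (chromosome 2, 26457903 to 26516663), the receptor, ran from 0 to 1033 CPM in Pou4f3-DTR (median 314) and from 0 to 1213 CPM in Atoh1-EGFP (median 504). Its summed levels were 382 CPM (370 to 395) and 558 CPM (544 to 573), a difference of 1.46-fold, under the 1.5-fold used to count. In wells with a Y-linked read Notch1 stood at 340 against 465 CPM. In wells with an Xist read it was nearly level, at 550 against 564 CPM. Notch1 overlaps 3 other gene models in the annotation and Hes5 overlaps 1, so their reads are less certain. Notch3 was nearly level, at 11.4 and 9.90 CPM.

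Jag1 (chromosome 2, 137081456 to 137116644), the ligand that supporting cells carry, ran from 0 to 330 CPM in Pou4f3-DTR (median 62.7) and from 0 to 620 CPM in Atoh1-EGFP (median 110). Summed, it was 84.5 CPM (78.7 to 90.7) against 175 CPM (167 to 183), 2.07-fold lower, with a read in 17 and 20 of 22 wells. Jag2, a ligand mainly of hair cells, stood at 3.28 against 19.0 CPM with a read in 3 and 6 wells. Lfng, a glycosyltransferase that modifies Notch receptors, stood at 13.7 against 38.9 CPM with a read in 10 and 11 wells. Its relative Mfng went the other way, at 104 against 62.3 CPM (log2 0.74, and 0.39 without 1 well).

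Of the 6 Notch targets Hes1, Hes5, Hey1, Hey2, Heyl and Nrarp, 5 were at least 1.5-fold lower (27.4% of all genes) and Hey2 was within 1.5-fold. These 5 are among the 8 lower genes of the list counted above and add no separate count. Hey1 (chromosome 3, 8663359 to 8667256) ran from 0 to 519 CPM in Pou4f3-DTR wells (median 32.8) and from 0 to 729 CPM in Atoh1-EGFP wells (median 204), with a read in 13 and 15 wells. Its summed levels were 95.8 CPM (89.6 to 102) and 258 CPM (248 to 268), 2.69-fold lower. Heyl (chromosome 4, 123233556 to 123249875) ran from 0 to 513 CPM (median 57.7) and from 0 to 967 CPM (median 231), and its summed levels were 105 and 242 CPM, 2.31-fold lower. Both are repressors of the Hey family, and for both the Pou4f3-DTR median lay below that of Atoh1-EGFP while single wells overlapped. Hes5, a repressor read in few cells, stood at 32.5 against 72.6 CPM with a read in 5 and 9 wells, Hes1 at 49.99 against 82.2 CPM with a read in 17 of 22 wells in each, and Nrarp, a feedback inhibitor, at 10.3 against 29.2 CPM. Hey2 stood at 73.5 against 53.01 CPM (log2 0.47, and -0.18 without 1 well), and its direction turned with sex: 118 against 76.0 CPM in wells with a Y-linked read and 3.995 against 51.7 CPM in wells with an Xist read. Hes6, which antagonises Hes1, stood at 47.0 against 22.4 CPM (log2 1.07, and 0.45 without 1 well). Dll1 and Dll3, ligands of hair cells, had 0 reads in these wells.

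**Figure D3:**
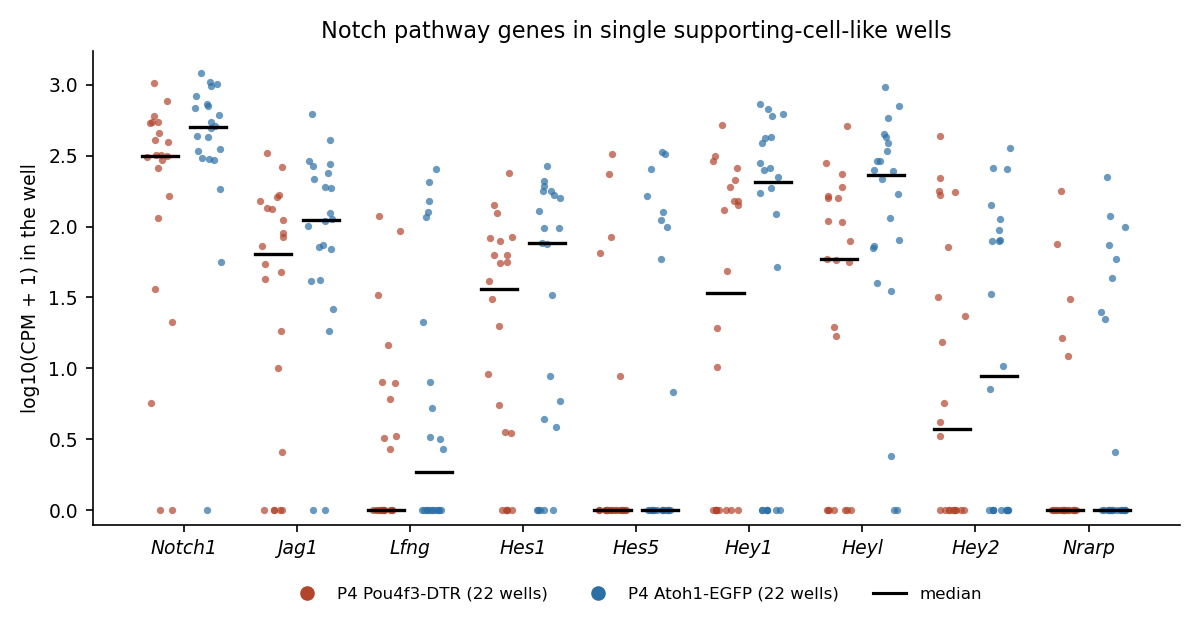
Level of 9 Notch pathway genes in single supporting-cell-like wells, as log10(CPM + 1) on the vertical axis, for 22 Pou4f3-DTR and 22 Atoh1-EGFP wells; each point is a well and each bar a median. Points of the genotypes overlap for every gene, while the Pou4f3-DTR bars for Hey1 (32.8 CPM) and Heyl (57.7 CPM) sit below those of Atoh1-EGFP (204 and 231 CPM).

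Without the Atoh1-EGFP well with most reads, the log2 folds were -1.25 for Hey1, -1.004 for Heyl, -0.73 for Jag1 and -0.55 for Hes1. The sexes were unevenly mixed among these wells, with 6 Pou4f3-DTR and 12 Atoh1-EGFP wells holding an Xist read. Hey1 stood at 81.6 against 308 CPM in wells with a Y-linked read and at 118 against 273 CPM in wells with an Xist read. The list's medians in these subsets were -0.75 and -0.92. Markers of supporting cells were lower too: 5 of 12 measured were at least 1.5-fold lower (27.4% of all genes), 0 higher, with a median of -0.38, and 2 of the 5, Jag1 and Lfng, are in both lists. Summed over 14 markers, single wells held 1341 to 9629 CPM in Pou4f3-DTR (median 5747) and 4905 to 11781 CPM in Atoh1-EGFP (median 6609). Otog, Sparcl1, Otoa and Slc1a3 were within 1.2-fold. Without the 1 Pou4f3-DTR well that held fewer than 5 of these markers the Notch median was -0.60. The part of marker level in the Notch difference was not tested.

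The upstream sequences of the Notch targets are shown because these genes share a regulator: RBPJ, the DNA-binding partner of activated Notch, binds sites with the core TGGGAA. RefSeq entries on GRCm38.p6 were found for 3 of the 6 Hes, Hey and Nrarp genes named above, and the 250 bases before each start are given, with TGGGAA on either strand (TTCCCA in the reverse reading) in capitals. Hes5 is at chr4:154960673-154960922, + strand, Hey2 at chr10:30842784-30843033, - strand, and Nrarp at chr2:25180508-25180757, + strand.
Hes5: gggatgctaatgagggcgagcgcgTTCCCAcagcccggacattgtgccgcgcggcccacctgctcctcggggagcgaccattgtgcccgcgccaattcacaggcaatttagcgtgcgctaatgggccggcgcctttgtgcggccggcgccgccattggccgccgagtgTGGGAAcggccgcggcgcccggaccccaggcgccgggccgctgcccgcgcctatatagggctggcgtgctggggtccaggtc
Hey2: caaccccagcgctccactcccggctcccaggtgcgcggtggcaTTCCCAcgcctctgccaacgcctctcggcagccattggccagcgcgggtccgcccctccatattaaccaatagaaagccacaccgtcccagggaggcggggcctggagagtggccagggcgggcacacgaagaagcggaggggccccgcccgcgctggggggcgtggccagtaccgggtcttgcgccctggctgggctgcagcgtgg
Nrarp: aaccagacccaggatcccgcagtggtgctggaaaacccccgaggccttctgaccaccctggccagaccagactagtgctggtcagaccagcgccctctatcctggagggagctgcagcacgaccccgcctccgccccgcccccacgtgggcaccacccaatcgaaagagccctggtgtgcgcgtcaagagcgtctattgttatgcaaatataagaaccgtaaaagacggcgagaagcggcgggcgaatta

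The Hes5 window held the core at 2 places, 1 on each strand, beginning 226 and 82 bases before the start. The Hey2 window held it at 1 place, 207 bases before the start, and the Nrarp window at 0. Of 27025 windows of the same length, 21.6% held the core at least once and 2.83% at least 2 times. A match is a string of letters and not a measured binding site.

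Wnt pathway genes in the same wells were at least 1.5-fold higher about as often as all genes (26.6%): 4 of 15 measured, with 2 lower. Their median of 0.37 was 0.03 with wells thinned to 80000 reads and -0.09 in wells with a Y-linked read. Lgr5, a receptor that amplifies Wnt signals and a marker of supporting cells able to form hair cells, ran from 0 to 974 CPM in Pou4f3-DTR and from 0 to 385 CPM in Atoh1-EGFP, with a median of 0 in both. Its summed levels were 143 CPM (136 to 151) and 42.6 CPM (38.6 to 46.9), 3.36-fold higher, with a read in 10 and 9 of 22 wells. Tcf7l2, a transcription factor of the pathway, stood at 40.5 against 10.9 CPM and Fzd3, a receptor, at 76.6 against 28.1 CPM. Wnt5a, a ligand, was lower, at 38.4 against 71.4 CPM. Of only 3 measured gap junction genes 2 were lower (27.4% of all genes): Gjb2 at 185 against 290 CPM and Gjb1 at 11.9 against 19.8 CPM. Gjb1 became log2 1.00 in the other direction without the 1 Atoh1-EGFP well that held 71.9% of its reads.

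The genes named by size in supporting-cell-like wells were mostly read in few wells. At least 2-fold differences were 16.6% of genes upward and 17.2% downward. Nedd9 led in the number of wells, with a read in 14 of 22 Pou4f3-DTR and 6 of 22 Atoh1-EGFP wells. It stood at 155 CPM (147 to 164) against 5.55 CPM (4.18 to 7.23), 28.0-fold higher, and at 222 CPM in P4 wildtype wells of this class. Insr, the insulin receptor, stood at 62.7 against 2.12 CPM with a read in 9 and 3 wells. Zfp281 and Zfp868, zinc finger proteins, and Enpp4 were 59.5-fold, 24.9-fold and 19.6-fold higher. In the other direction Plscr2, a phospholipid scramblase, stood at 5.14 against 109 CPM with a read in 4 and 12 wells. Dolpp1, Pou3f2, a neural transcription factor, Bmp1, a matrix protease, and Rad1, a DNA damage clamp protein, were 20.2-fold to 51.3-fold lower, and for Pou3f2 and Bmp1 1 Atoh1-EGFP well held 78.3% and 74.5% of the reads.

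Hair-cell-like wells came from the same clusters in both genotypes. Clusters 1, 5 and 12 held 7, 6 and 1 of the 14 Pou4f3-DTR wells and 7, 9 and 3 of the 19 Atoh1-EGFP wells. Spp1 is among the leading genes of cluster 1, and Ocm and Calb1 are among those of cluster 12. The part of this mix of clusters in the differences below was not tested. Of 7794 genes tested, 2231 (28.6%) were at least 1.5-fold lower in Pou4f3-DTR and 1761 (22.6%) at least 1.5-fold higher. Of 21 measured hair cell markers 4 were lower, a smaller share than of all genes, and 2 were higher (Ptprq and Tmc1); the median was -0.36 against -0.09 for all genes. The lower ones included Mreg, of organelle transport, which stood at 47.9 against 111 CPM, and Cib2, a calcium sensor of the transduction complex, at 391 against 730 CPM. Gfi1, a repressor that guards hair cell identity, was within 1.5-fold, at 547 against 745 CPM.

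Markers of hair cell subtypes differed in both directions. Calb2 (calretinin), a marker of type II hair cells, ran from 0 to 115 CPM in Pou4f3-DTR (median 7.80) and from 0 to 572 CPM in Atoh1-EGFP (median 112.5). Its summed levels were 24.04 and 138 CPM, 5.73-fold lower, with a read in 7 of 14 and 16 of 19 wells. Spp1 (osteopontin), of type I hair cells, was abundant, at 16091 against 10420 CPM, with a read in 8 wells of each genotype. Ocm and Calb1, of the central striola, stood at 44.0 against 181 CPM and 73.6 against 210 CPM, with a read in 2 and 4 and in 4 and 6 wells. Of 7 measured striolar genes these 2 were lower, 2 were higher, Adam11 among them, and 3 were within 1.5-fold. Their median log2 fold was -0.11 against -0.09 for all genes. Among 7 measured type I genes 4 were higher and 1 lower, and of only 3 measured type II genes 2 were lower. Of all genes tested in these wells 22.6% were higher and 28.6% lower.

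The genes of the hair bundle split in both directions in hair-cell-like wells. Of 24 measured, 9 were at least 1.5-fold higher in Pou4f3-DTR and 7 lower (22.6% and 28.6% of all genes), with a median of 0.22. The lower share is close to that of all genes. Tmie, a membrane protein of the transduction complex, ran from 0 to 121 CPM in Pou4f3-DTR (median 62.9) and from 0 to 425 CPM in Atoh1-EGFP (median 146), and summed to 57.7 against 164 CPM, 2.84-fold lower. Clrn1 stood at 210 against 436 CPM, Lhfpl5 at 432 against 663 CPM and Tmc2, a transduction channel subunit, at 9.07 against 19.8 CPM. Fscn2, an actin bundler, stood at 246 against 394 CPM and Grxcr1 at 99.8 against 156 CPM.

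The 9 higher genes included link proteins, scaffolds, a myosin and a channel subunit. Cdh23 and Pcdh15, the cadherins that form the tip link, stood at 91.0 against 48.5 CPM and 94.7 against 53.5 CPM. Ptprq, of the shaft connectors, ran from 363 to 5058 CPM (median 1520) and from 248 to 3544 CPM (median 1206), and summed to 2004 CPM (1970 to 2037) against 1327 CPM (1303 to 1351), 1.51-fold higher. Myo15, the myosin that carries cargo to stereocilia tips, stood at 485 against 312 CPM and Eps8, its cargo, at 40.3 against 9.93 CPM. Tmc1, another transduction channel subunit, stood at 26.8 against 12.9 CPM. Ush1c, Whrn and Pdzd7, scaffolds of Usher protein complexes, were 1.745-fold, 1.92-fold and 2.57-fold higher. Without the 1 Pou4f3-DTR well with most reads the log2 folds were -0.08 for Whrn and 0.30 for Tmc1. Single wells overlapped for each of these genes.

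The higher and lower genes of this split differed in transcript length. The longest annotated transcripts of the 9 higher genes were 3072 to 11769 bases (median 4567), and those of the 7 lower genes 1071 to 3216 bases (median 1713). Over all tested genes with a length in hair-cell-like wells, the median log2 fold was -0.14 in the shortest of 4 equal bins of genes and -0.03 in the longest. In supporting-cell-like wells these medians were -0.15 and 0.13. The Spearman correlation of length and log2 fold over all genes in hair-cell-like wells was only 0.04. There the share of genes at least 1.5-fold higher was 15.8% in the shortest bin and 27.3% in the longest. The share at least 1.5-fold lower was 26.2% and 29.5%, so it did not fall with length. Genes are not independent replicates and share the same wells, so the medians describe these libraries alone. The part of length in the bundle split was not tested.

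**Figure D4:**
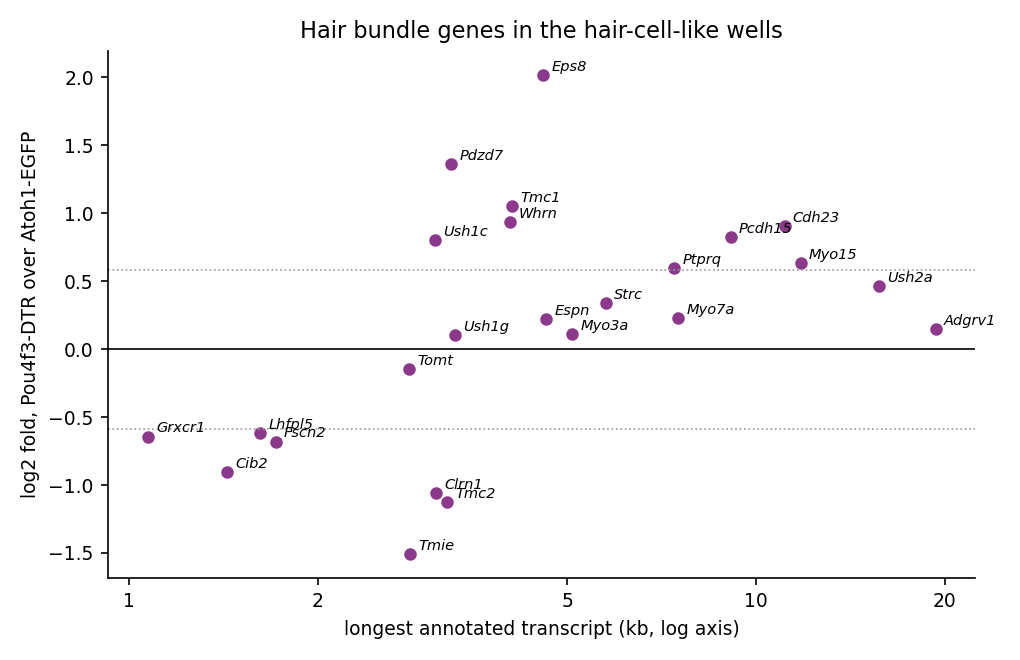
Log2 fold in hair-cell-like wells (vertical axis, Pou4f3-DTR over Atoh1-EGFP) of the 24 measured hair bundle genes against the longest annotated transcript (kb, log axis); each point is a gene and dotted lines mark 1.5-fold. The 7 lower genes have transcripts of at most 3216 bases, and the 9 higher genes of at least 3072 bases.

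Synapse and channel genes showed no common direction, with 3 of 15 higher and 4 lower, against 22.6% and 28.6% of all genes (median -0.26). Slc17a8 (VGLUT3), which loads glutamate into synaptic vesicles, ran from 0 to 945 CPM in Pou4f3-DTR (median 116) and from 0 to 1299 CPM in Atoh1-EGFP (median 241), and summed to 165 against 367 CPM, 2.22-fold lower. Otof stood at 778 against 1099 CPM. Chrna10, an acetylcholine receptor subunit, was within 1.2-fold, at 624 and 532 CPM.

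Immediate early genes, which respond within minutes to stimulation and to cell dissociation, were higher in the Pou4f3-DTR hair-cell-like wells, less so once 3 wells were left out. Of 13 measured, 10 were at least 1.5-fold higher and none lower, against 22.6% and 28.6% of all genes. The median was 1.598, in which Egr2 stands at its bound. The summed list ran from 154 to 17433 CPM in Pou4f3-DTR wells (median 3123) and from 67.1 to 4265 CPM in Atoh1-EGFP wells (median 1249). Nr4a1, an orphan nuclear receptor, ran from 0 to 1698 CPM (median 50.9) and from 0 to 65.5 CPM (median 0). It summed to 236 CPM (225 to 248) against 11.9 CPM (9.78 to 14.4), 19.8-fold higher, with a read in 8 of 14 and 5 of 19 wells. Btg2, an antiproliferative gene, ran from 0 to 3360 CPM (median 436) and from 0 to 1129 CPM (median 145), and was 3.22-fold higher. Fos was 1.55-fold higher, at 1327 against 854 CPM, and Egr2 had 0 reads in Atoh1-EGFP and was at least 97.4-fold higher.

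Wells that also held supporting cell markers carried part of this difference. Wells with reads of 5 or more supporting cell markers made up 2 of the 14 Pou4f3-DTR and 1 of the 19 Atoh1-EGFP hair-cell-like wells. The summed supporting cell markers reached 3479 CPM in a Pou4f3-DTR hair-cell-like well and at most 850 CPM in an Atoh1-EGFP one. Immediate early genes were abundant in supporting-cell-like wells, with medians of 14098 and 14250 CPM, and level there (median log2 fold 0.03). Without the 3 wells, leaving 12 and 18, 6 of 13 genes remained at least 1.5-fold higher and 0 were lower. The median was 0.46 against -0.14 for all genes in these wells, and the share of all genes past 1.5-fold in them is not given here. Nr4a1 then stood at 116 against 12.48 CPM, Btg2 at 552 against 224 CPM, Atf3 at 50.6 against 2.54 CPM, Fos at 1096 against 855 CPM and Dusp1 at 32.0 against 34.8 CPM.

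**Figure D5:**
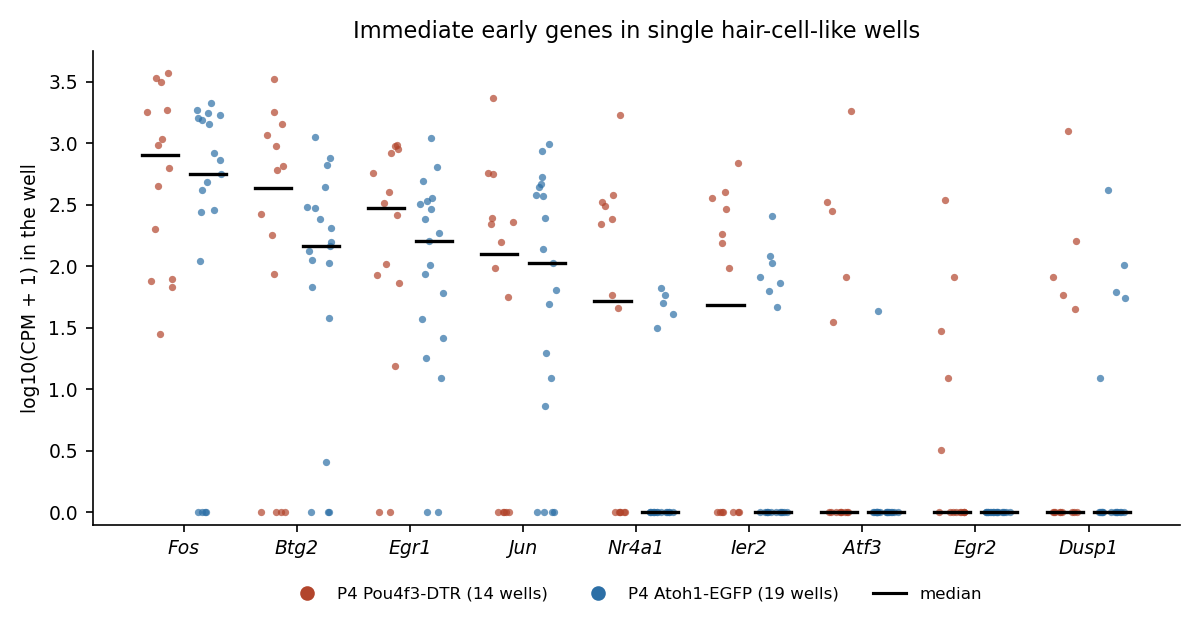
Level of 9 immediate early genes in single hair-cell-like wells, as log10(CPM + 1) on the vertical axis, for 14 Pou4f3-DTR and 19 Atoh1-EGFP wells; each point is a well and each bar a median. The highest Nr4a1 well is at 1698 CPM in Pou4f3-DTR and at 65.5 CPM in Atoh1-EGFP, and Egr2 has no read in Atoh1-EGFP.

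Genes named by size in hair-cell-like wells rested on few wells. Differences of at least 2-fold were 13.8% of genes upward and 17.1% downward. Atf3, a stress-induced transcription factor, stood at 167 against 2.43 CPM (68.9-fold) with a read in 5 of 14 and 1 of 19 wells, and 1 well held 70.2% of its Pou4f3-DTR reads. Adam11, a membrane protein that is also in the striolar list, stood at 100.04 against 1.66 CPM. Amotl1, of cell junctions, stood at 50.1 against 0.883 CPM and Efhd2, a calcium-binding protein, at 72.3 against 1.66 CPM. Ift80, of ciliary transport, stood at 53.3 against 2.10 CPM. Cdkl1, a kinase, and Ell3, an elongation factor, had 0 reads in Pou4f3-DTR and stood at 70.1 and 50.1 CPM in Atoh1-EGFP, at least 162-fold and 116-fold lower, with a read in 7 and 8 wells. Naa16, of an acetyltransferase, Zfp426 and Slc12a7, a potassium and chloride cotransporter, stood at 0.144, 1.295 and 1.58 CPM against 70.8, 63.7 and 61.6 CPM. Apart from the genes named by size, 3 of 11 measured heat shock genes were at least 1.5-fold lower and 1 higher. The lower share is close to the 28.6% of all genes. The lower ones included Hspd1, a mitochondrial chaperonin, at 99.0 against 213 CPM with a read in 12 of 14 and 19 of 19 wells.

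The non-sensory-epithelium-like wells were the largest class and had the lowest share of genes past 2-fold among the 3 classes. Of 7693 genes tested, 706 (9.18%) were at least 2-fold higher in Pou4f3-DTR and 980 (12.7%) lower, and TMM scaling moved the median log2 fold by 0.11, from -0.10 to 0.00. Under TMM 850 genes were higher and 840 lower. At 1.5-fold the shares were 18.2% and 24.8%. Of 11 measured markers of this epithelium 2 were higher and 1 was lower (median 0.13). Oc90, the main protein of the otoconia crystals, ran from 181 to 13877 CPM in Pou4f3-DTR (median 3114) and from 0 to 20502 CPM in Atoh1-EGFP (median 2346), and summed to 5032 and 3878 CPM. Slc26a4 (pendrin), an anion exchanger of these cells, was level at 498 and 525 CPM, and so was Wfdc2 within 1.2-fold.

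The 2 higher markers were read in a part of these wells. Abca13, a lipid transporter, ran from 0 to 4801 CPM (median 137) and from 0 to 3148 CPM (median 0), and summed to 782 CPM (767 to 798) against 295 CPM (286 to 303), 2.65-fold higher, with a read in 15 of 28 and 11 of 32 wells. Zpld1, a matrix protein, stood at 1781 against 747 CPM with a read in 6 and 4 wells, and its log2 fold of 1.25 was 0.30 without 1 well. The Pou4f3-DTR and Atoh1-EGFP wells of this class were 20 and 25 from cluster 2, 5 and 5 from cluster 6, where Abca13 and Zpld1 are among the leading genes, 2 and 1 from cluster 9, and 1 each from the cycling cluster 11.

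The Notch pathway gave 7 measured genes here, with 1 lower and 0 higher, against 24.8% and 18.2% of all genes in this class. Hey1 was that gene, at 23.2 against 55.4 CPM with a read in 7 and 11 wells, while Notch1 stood at 297 against 367 CPM, a 1.24-fold difference. In hair-cell-like wells 5 of 11 Notch genes were higher and 2 were lower (22.6% and 28.6% of all genes). Their median of 0.45 became -0.54 without the 3 wells that held supporting cell markers. Whether the Notch difference of supporting-cell-like wells differs from that of other classes was not tested. Of 10 measured heat shock genes in non-sensory wells 1 was lower: Dnaja1, a cochaperone, at 373 against 653 CPM. Of 9 genes of the p53 and injury list 4 were higher and 1 lower, including Cdkn1a, the cell cycle inhibitor p21, at 129 against 68.6 CPM with a read in 9 and 8 wells. Without 1 well the log2 fold of Cdkn1a was -0.43.

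Genes named by size in these wells were led by Nav3, of microtubule tips, at 80.5 against 10.96 CPM (7.34-fold), with a read in 9 of 28 and 3 of 32 wells. Igtp, an interferon-inducible GTPase, stood at 51.7 against 8.24 CPM, Serpina3n, a protease inhibitor of acute responses, at 115 against 18.4 CPM, Ahnak at 99.8 against 16.03 CPM and Slc6a6, the taurine transporter, at 74.2 against 13.7 CPM. Slc6a6 was read in 15 of 28 and 5 of 32 wells, and Serpina3n stood at 37.6 against 34.6 CPM in wells with a Y-linked read. Fam192a, a proteasome regulator, ran from 0 to 118 CPM in Pou4f3-DTR (median 0) and from 0 to 664 CPM in Atoh1-EGFP (median 55.0), with a read in 5 of 28 and 20 of 32 wells. It summed to 12.3 CPM (10.4 to 14.3) against 104 CPM (99.2 to 109), 8.50-fold lower. Mxi1, a repressor of Myc targets, Herc4, a ubiquitin ligase, Arhgef17, a guanine nucleotide exchange factor, and Cars, the cysteine tRNA synthetase, were 23.0-fold, 15.4-fold, 7.25-fold and 7.10-fold lower.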

How the data were processed

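The authors deposited expected counts per gene and well. The submitters' processing notes list STAR 2.5.3a, RSEM 1.3.0 and the mm10 build. In the wells compared 90.4% of nonzero values were exact whole numbers, and the rest were rounded before use. No source used here gives the annotation or whether counting was stranded, so overlapping or antisense genes are uncertain. Totals and CPM were taken over 52636 genes, without 92 spike-ins and 2 transgene entries. Of these genes 52403 matched GENCODE M21 (GRCm38) by identifier, the source of coordinates and lengths. No 2 of the 150 columns were identical, and 0 of 1002 columns lacked a sample.

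All 861 passed wells were clustered with scanpy 1.11.5 (Python 3.11.15): 10000 reads per well, log scale, 2000 variable genes, 30 components, 15 neighbours, Leiden resolution 1, seed 0. A cluster took the class with the largest share of its marker list raised 1.5-fold and read in 25% of its wells, given 3 markers, at least 30% of the list and a lead of 10 points. These thresholds were set after the clusters were seen, and they left cluster 8 (5.56% of Pou4f3-DTR and 2.56% of Atoh1-EGFP wells) without a class. No doublet caller was run on plate wells; hair-cell-like wells with 5 supporting cell markers were counted as mixed.

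Reads were summed per genotype, with exact Poisson and Clopper-Pearson 95% intervals. A genotype under 3 reads was set to 3 for folds. Tested genes had a mean of at least 10 CPM and a read in 10% of wells; list members counted from 1.5-fold. Genes were named by the largest 2-fold or greater difference (10 per direction over all wells, 5 per class), with 50 CPM and 25% of wells in the higher genotype, the same direction in per-well means and shares of wells, and 2-fold without the top well; unnamed, predicted, sex-linked, mitochondrial and ribosomal genes were left out. With 1 sample per genotype no test was run. The members, lists and rules were chosen with earlier results of these data known. Alternatives were other scalings (edgeR 4.0.16 TMM), filters, thinning to 80000 reads, equal class weights, other clusterings and an own quality filter; subsets by sex-linked reads and marker counts were added after seeing the data. The computation was tested on simulated data.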

Additional observations from a re-analysis of the deposited data

Results flagged for a closer look

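Wells labelled as failed entered no comparison. Among them 4 of the 16 Pou4f3-DTR and 5 of the 12 Atoh1-EGFP wells nevertheless held at least 1000 detected genes, and the deepest of each had 374618 and 464785 reads. The medians over all failed wells were 51 and 3889 reads.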

How the results depend on the processing

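No paired analysis was possible because each genotype is 1 sample with no replicate number. Counts of genes past 2-fold moved by over 1.5 times with the filter alone, among the scalings, filters and thinning tried. With no filter beyond 3 reads, higher and lower genes numbered 3246 and 3337 over all wells, 3266 and 3497 in hair-cell-like, 3671 and 3511 in supporting-cell-like and 3082 and 3390 in non-sensory wells. At 50 CPM and 25% of wells they numbered 9 and 27, 160 and 241, 159 and 267, and 55 and 121. Class shares depended on the clustering. At Leiden resolution 2 supporting-cell-like wells were 0% of both genotypes, and wells with no class 43.1% of Pou4f3-DTR and 37.2% of Atoh1-EGFP. At resolution 0.5 wells with no class were 0% of both, and with 1000 variable genes 16.7% and 9.0%. The mesenchyme-like class (cluster 0) was 0% of both at resolution 0.5, with 1000 variable genes, with the enzyme means removed, and with the compared wells clustered alone.

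Rbm4, lower over all wells, had a log2 fold of 0.60 in wells with an Xist read. The Notch median in supporting-cell-like wells ran from -0.57 to -0.92 over 8 alternatives, and the immediate early median in hair-cell-like wells from 0.46 to 1.72 over 7. Few wells hold reads of most named genes, which limits single folds, and reads per cell cannot separate fewer cells of a kind from less RNA per cell. The cause of each shift was not tested.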

Other observations

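The 7 wells of cluster 0 without mesenchyme markers shared further genes, all picked after their values were seen. Fam20a, a secretory pathway pseudokinase, had a read in 7 of 7 wells at 381 CPM and in 2 of the other 143 wells at 0.42 CPM. Lrp2 (megalin), an endocytic receptor, had a read in 6 of 7 wells at 568 CPM and in 6 of the other 143 at 2.67 CPM. Esrrb, an orphan nuclear receptor, had a read in 5 of 7 wells at 260 CPM and in 0 of the other 143. Both genotypes contributed, with 4 Pou4f3-DTR and 3 Atoh1-EGFP wells. This split depended on the clustering. With the compared wells clustered alone, the cluster with Esrrb, Kcne1 and Lrp2 among its leading genes held 7 Pou4f3-DTR and 2 Atoh1-EGFP wells.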
